A study of Drosophila melanogaster with 2 samples.

Results

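Autosomal divergent promoter peaks are the places off the X chromosome where MBD-R2 was precipitated at a pair of genes that start back to back. A peak was taken when its summit, the position of highest enrichment, lay off the X and within 500 bp of the transcription start site (TSS) of a divergent protein-coding gene. The TSS is the 5′-most one of the gene. A gene is divergent when a protein-coding gene on the opposite strand has its own 5′-most TSS within 500 bp upstream. Of the 7544 peaks in the main list 6157 lay off the X, and 1541 of these (25%) met the rule, each counted once. They comprise 338 peaks on arm 2L, 330 on 2R, 383 on 3L, 488 on 3R and 2 on chromosome 4, with 0 on the Y. Each was assigned to the pair with the nearest TSS, which gave 1164 pairs. For comparison, 2604 peaks off the X lay within 500 bp of the TSS of a gene that has no divergent partner, and these are called single-gene promoter peaks.

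The material was 1 group of whole Drosophila melanogaster embryos, 0 to 24 h old, from a transgenic strain carrying an MBD-R2-eGFP fusion. Chromatin was sheared by sonication to 200 to 800 bp, and an antibody against GFP was used for the precipitation (chromatin immunoprecipitation and sequencing, ChIP-seq). Both libraries, biological replicates 1 and 2, carry the same fusion. Control libraries named in the labels were not analysed here, and all cell types of the embryo are mixed. The main list, made from both replicates, a conservative list and a list for each replicate hold peaks that passed the authors' limit on the irreproducible discovery rate, a measure of how well peak ranks repeat. A longer ranking for each replicate holds weaker peaks too. Signal means the signal value the authors deposited for a peak, in units whose meaning and scaling are not stated.

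MBD-R2 is a subunit of the NSL complex, which contains the histone acetyltransferase MOF and sits at promoters of broadly expressed genes in flies. In the compact fly genome many such genes are arranged head to head, so that a short stretch of DNA serves as the promoter region of both. Housekeeping promoters of flies often hold the DNA replication-related element (DRE), which the factor DREF binds, or Motif 1, which the factor M1BP binds, and often lack a TATA box.

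The DNA between the TSSs is printed for 8 pairs, since this is the stretch that both genes share and in which the summit lay for 7 of them. The first 6 are the strongest pairs with TSSs 40 to 300 bp apart off the right arm of chromosome 2, and the last 2 are further strong pairs that hold a DRE. Sequences are the plus strand of dm6 from its RefSeq copy, 5′ to 3′. Each begins 1 base after the TSS of the minus-strand gene, named first, and ends 1 base before the TSS of the plus-strand gene. Capitals mark a DRE (TATCGATA) or an E-box (CAGCTG). The Motif 1 core was searched too and is in none of these 8.
CG7601/CIA30: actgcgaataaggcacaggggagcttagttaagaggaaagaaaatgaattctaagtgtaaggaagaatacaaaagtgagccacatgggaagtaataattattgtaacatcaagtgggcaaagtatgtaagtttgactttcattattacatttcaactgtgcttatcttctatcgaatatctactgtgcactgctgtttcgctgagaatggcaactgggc
Tcs5/CHMP2B: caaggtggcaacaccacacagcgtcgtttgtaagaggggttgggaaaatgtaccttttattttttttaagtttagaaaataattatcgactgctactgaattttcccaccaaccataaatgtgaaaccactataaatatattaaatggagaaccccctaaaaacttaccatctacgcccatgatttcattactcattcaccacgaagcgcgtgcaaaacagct
Fbw5/CG9147: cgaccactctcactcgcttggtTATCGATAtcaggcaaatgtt
CG13390/CG17294: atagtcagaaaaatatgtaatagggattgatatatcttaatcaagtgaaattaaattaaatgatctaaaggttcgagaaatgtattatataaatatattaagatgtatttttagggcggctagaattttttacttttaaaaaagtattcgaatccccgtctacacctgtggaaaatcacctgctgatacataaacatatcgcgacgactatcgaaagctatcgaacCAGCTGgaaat
Art3/mRpS10: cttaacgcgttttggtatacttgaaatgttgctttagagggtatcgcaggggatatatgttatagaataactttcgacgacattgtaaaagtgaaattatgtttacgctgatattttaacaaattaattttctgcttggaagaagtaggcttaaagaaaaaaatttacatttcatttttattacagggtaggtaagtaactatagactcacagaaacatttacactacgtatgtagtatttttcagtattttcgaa
Atat/Shc: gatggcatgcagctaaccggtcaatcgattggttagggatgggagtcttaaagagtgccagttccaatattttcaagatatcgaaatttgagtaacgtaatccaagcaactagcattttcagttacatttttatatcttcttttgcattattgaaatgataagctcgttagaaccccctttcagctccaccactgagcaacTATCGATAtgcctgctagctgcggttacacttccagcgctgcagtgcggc
fws/Lamtor3: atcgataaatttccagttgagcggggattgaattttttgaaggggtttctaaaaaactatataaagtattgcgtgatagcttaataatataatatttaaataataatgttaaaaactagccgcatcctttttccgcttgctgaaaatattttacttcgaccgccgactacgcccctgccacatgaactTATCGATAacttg
TrpRS/Vps16A: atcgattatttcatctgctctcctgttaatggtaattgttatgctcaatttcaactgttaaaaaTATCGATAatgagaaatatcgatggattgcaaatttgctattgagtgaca

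On dm6 the sequences lie at chr3R:29736746-29736964, chr3L:5139396-5139618, chr2L:6065954-6065996, chr2L:8376798-8377034, chr3R:15229409-15229664, chr3L:9426759-9427009, chr2L:17481030-17481230 and chr3R:9266905-9267018, in the order printed. Counted from the first base printed, the summit fell on base 107 for CG7601/CIA30, base 115 for Tcs5/CHMP2B, base 101 for CG13390/CG17294, base 131 for Art3/mRpS10 and base 127 for Atat/Shc. These summits are near the centre of the printed stretch, and the letters there hold none of the capitalised motifs. The DRE of Atat/Shc begins at base 202, toward the plus-strand gene. In TrpRS/Vps16A the summit fell on base 96 and the DRE begins at base 65. In fws/Lamtor3 the summit was on base 128, with a DRE at base 189. The summit of Fbw5/CG9147 lay beyond the printed bases, on the side of the plus-strand gene.

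A feature of the lists bears on every count of summits. In no list did neighbouring summits lie closer than 199 bp. In the main list 683 couples of summits lay 250 bp or less apart, and in 670 of these the weaker summit was at the higher coordinate, against 13 at the lower. The same lopsidedness was present in the replicate 1 list (327 against 0) and the replicate 2 list (733 against 13). A summit with a stronger one within 250 bp is called a companion here. Of the 1541 divergent promoter peaks 225 (14.6%) were companions, 223 of them at the higher coordinate, and of the 2604 single-gene promoter peaks 220 were (8.45%). The median signal was 58.5 for companions at divergent promoters and 190.2 for the other 1316 peaks there. What produced companions was not tested, so positions and signals are given without them unless stated.

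Most divergent pairs carried a peak. Off the X the annotation holds 1554 divergent pairs made of 2971 genes, 100 of which belong to more than 1 pair. A summit lay within 500 bp of either TSS in 1264 pairs, 81.3% (Wilson 95% interval 79.3 to 83.2, counting error only). The share was 71.7% in the replicate 1 list and 81.3% in the replicate 2 list, and 79.3% in the conservative list. Both replicate lists had a peak in 1094 pairs. Of the 290 pairs with no peak in the main list, 255 had none in any of the 4 lists. Per gene, 79.6% of divergent genes had a summit within 500 bp of their own TSS, against 28.5% of the 8801 other protein-coding genes off the X and 41.4% of all 11772. The replicate 1 list gave 69.1% of divergent and 19.4% of other genes (31.9% of all), the replicate 2 list 79.7% and 27.8% (40.9% of all), and the conservative list 77.1% and 24.2% (37.5% of all). Divergent genes were 25.2% of all protein-coding genes off the X and 48.5% of those with a summit.

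A divergent gene can be counted through its partner's peak, because both TSSs fall in the same window. In pairs over 300 bp apart a tighter window of 150 bp separates them. There, 42.6% of the 982 TSSs had their own summit (39.5 to 45.7), against 22.2% of the 8651 TSSs of other genes (21.3 to 23). The replicate 1 list gave 35.2% and 16%, and the replicate 2 list 42.5% and 21.7%. The share was higher for divergent TSSs in both replicates.

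By chromosome arm, pairs with a peak were 73.7% of 357 on 2L, 83.6% of 330 on 2R, 81.7% of 360 on 3L and 85.5% of 502 on 3R. Without histone genes the share on 2L was 83.4% of 314 pairs. The replication-dependent histone genes, which supply the S-phase histones, form a tandem array on 2L and make 42 pairs in which both genes are histones. None of the 42 had a peak in any of the 4 lists. These copies are near-identical, so reads may not have been placed uniquely and a missing peak in this array is uncertain. The 3 other pairs with a histone gene each had a peak, and each of these genes is a replacement histone outside the array. They are ball/His2Av (the H2A.Z-type variant, signal 471.5), CG14036/His3.3A (H3.3, signal 260.7) and put/His4r (a replacement H4, signal 166.3). The summit lay 177 bp from the His2Av TSS and 55 bp from that of its partner ball. It lay 35 bp from the His4r TSS and 17 bp from that of put. Only at CG14036/His3.3A was the histone TSS the nearer one, at 35 bp against 77 bp. Altogether 6.67% of the histone pairs and 83.6% of the 1509 other pairs had a peak.

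With histone pairs left out, occupancy ranged from 78.5% to 90.4% across spacing classes. A peak was present in 90.4% of 303 pairs spaced 1 to 100 bp (86.6 to 93.3) and in 78.5% of 246 pairs spaced 101 to 200 bp (72.9 to 83.1). It was present in 84% of 418 pairs at 201 to 300 bp, in 80.2% of 334 pairs at 301 to 400 bp and in 84.1% of 208 pairs at 401 to 500 bp. Spacing had a median of 250 bp in the 1261 pairs with a peak (quartiles 120 and 338) and 266.5 bp in the 248 pairs without one (170.75 and 358.5). With histone pairs included the medians were 250 and 237.5 bp, so the order of the medians depends on them. The histone pairs have 39 of their 45 members at 101 to 200 bp. That class had the lowest share with them, at 68.1%, and without them, at 78.5%.

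**Figure D1:**
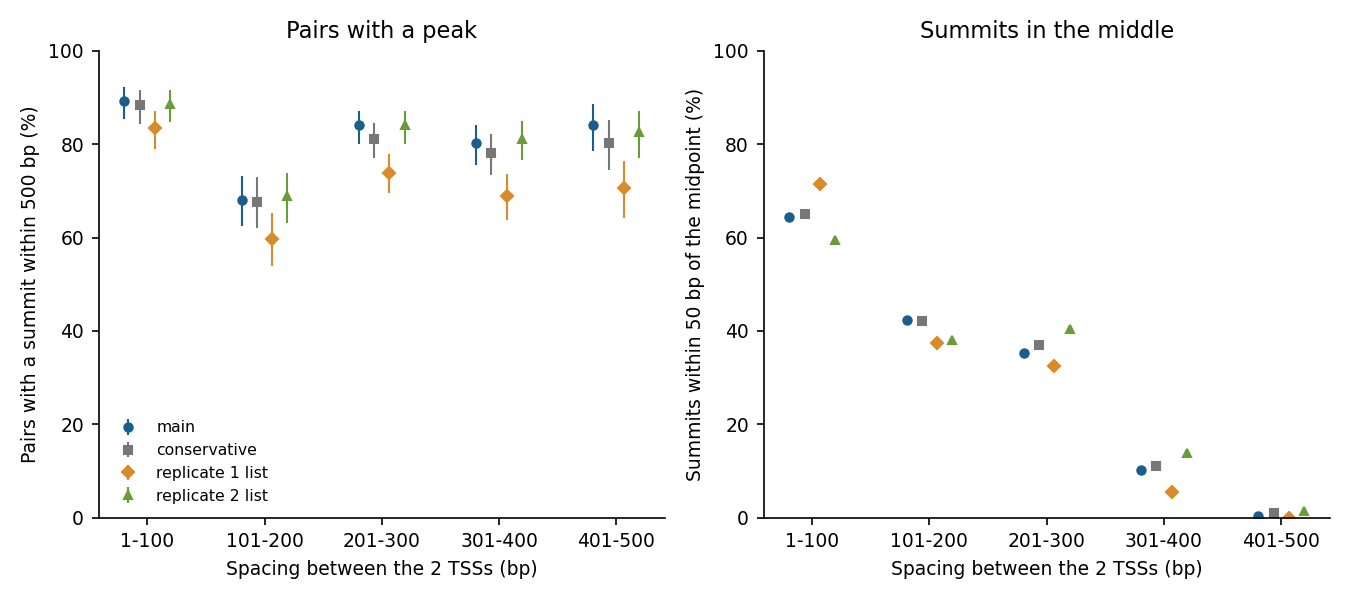
Left, share of all divergent pairs off the X with a summit within 500 bp of either TSS, in percent, by spacing class, with Wilson 95% intervals. Right, share of summits, companions left out, within 50 bp of the midpoint between the TSSs. At 1 to 100 bp both TSSs also lie within 50 bp of the midpoint. Points are the main, conservative, replicate 1 and replicate 2 lists. In the main list the left panel runs from 68.1% at 101 to 200 bp, where 39 histone pairs lie, to 89.3% at 1 to 100 bp, and the right panel falls to 0.485% at 401 to 500 bp, against 64.5% at 1 to 100 bp.

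Where the summit sat varied with the spacing. Of 1316 summits 652 (49.5%) lay between the TSSs, 343 lay beyond the TSS of the minus-strand gene and 321 beyond that of the plus-strand gene. With companions the sides were unequal, 358 and 477, because 156 of the 225 companions lay on the plus-strand side and 15 on the minus-strand side. The distance from the summit to the nearest TSS of the pair had a median of 52 bp (quartiles 23 and 106). In single-gene promoters it was 54 bp (quartiles 23 and 125.25). Both classes were chosen by a summit within 500 bp of a TSS, and at divergent promoters the nearer of 2 TSSs was taken, so these medians are a description.

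Summits within 50 bp of the midpoint were most frequent in the tightest pairs and rare in the widest. In pairs 1 to 100 bp apart 64.5% of 273 summits lay within 50 bp of the midpoint, at a median of 31 bp from it. At this spacing both TSSs also lie within 50 bp of the midpoint, so this class cannot tell the middle from a TSS. The nearest TSS was a median of 23 bp away, and 42.1% of these summits lay between the TSSs. Such pairs cannot show a summit at each TSS, since no list holds summits closer than 199 bp. At 201 to 300 bp, 70.3% of 354 summits lay between the TSSs and 35.3% in the middle. At 301 to 400 bp, 44.9% of 294 summits were between the TSSs and 10.2% in the middle. At 401 to 500 bp, 25.7% of 206 summits were between the TSSs, and 1 (0.485%) was within 50 bp of the midpoint. The median distance from the midpoint grew with spacing, through 31, 62, 76.75, 188.75 and 274 bp in the 5 classes. The median distance to the nearest TSS was 23, 46, 77.5, 69.5 and 59.5 bp. Over the same classes the middle share was 71.5, 37.4, 32.4, 5.56 and 0% in the replicate 1 list and 59.4, 38, 40.4, 13.9 and 1.42% in the replicate 2 list. A window of fixed width covers less of a longer stretch, so part of this fall follows from the measure. The distance to the nearest TSS is also bound by the spacing for a summit between the TSSs, so its low values in the tightest pairs follow in part from the spacing.

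**Figure D2:**
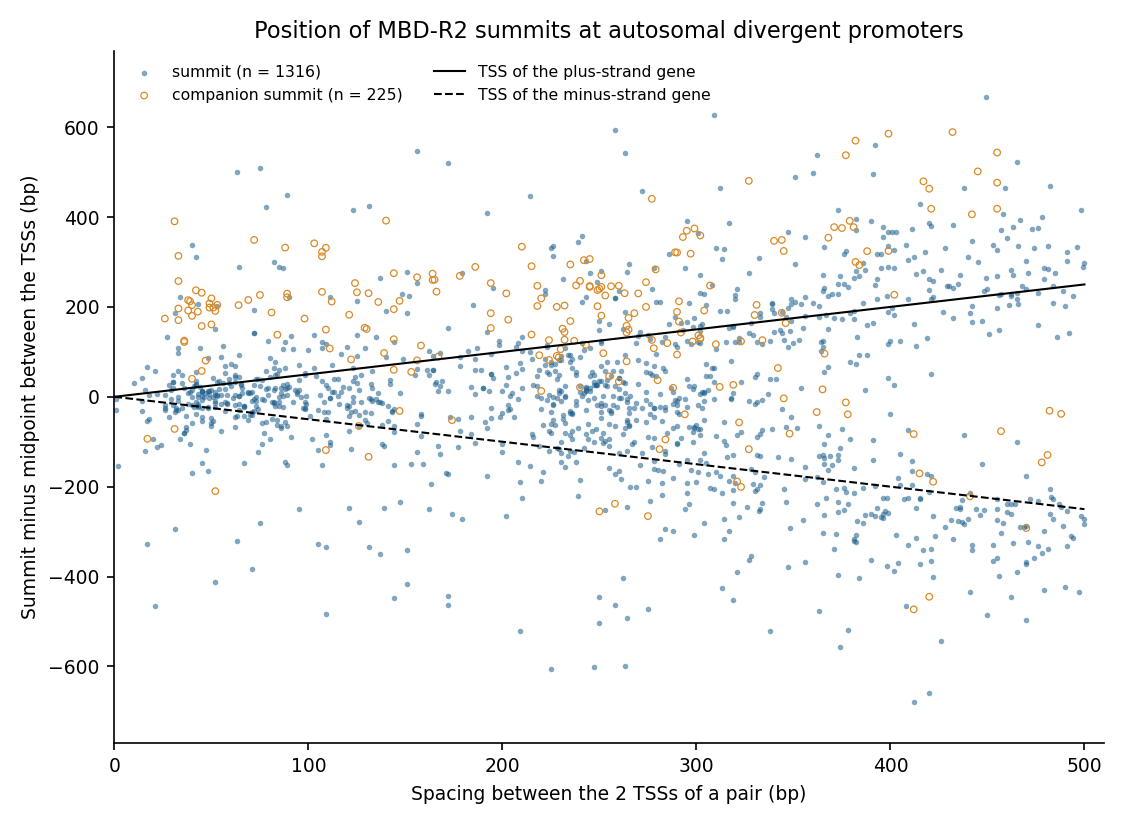
Summit position for all 1541 divergent promoter peaks. The x axis is the spacing of the pair in bp and the y axis the distance of the summit from the midpoint between the TSSs in bp, positive toward the plus-strand gene. Filled points are 1316 summits, open circles 225 companions, and the lines are the TSSs. Summits gather around the midpoint at short spacing, where both TSS lines also lie, and along both TSS lines from about 300 bp. The companions lie mostly above.

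At the lower end of the spacing range summits varied in place. Atg6/Pisd, a Beclin-type autophagy gene and phosphatidylserine decarboxylase, have TSSs 1 bp apart, with a summit 30 bp from the nearer TSS and a signal of 289.5 (replicate 1 102.9, replicate 2 181.5). CG4730/CG5039 are also 1 bp apart, with the summit 4 bp away and a signal of 278.7. In dpa/didum (the replicative helicase subunit Mcm4 and myosin V), 2 bp apart, the summit lay 154 bp away on the dpa side, with a signal of 354.3. CG1360/scra (scra encodes anillin), 10 bp apart, had a signal of 134.1, and CG10669/CG11902, 14 bp apart, 435.5. At the other end, 3 pairs have TSSs 500 bp apart, and each had its summit at 1 TSS. In su(Hw)/Polr2I, an insulator protein and an RNA polymerase II subunit, it lay 47 bp beyond the Polr2I TSS with a signal of 182.3. In Plzf/PLCXD it lay 23 bp from the Plzf TSS (158.1), and in Snap24/CG8478 33 bp from the TSS of the SNARE gene Snap24 (137.8).

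Among pairs over 300 bp apart, a peak at 1 TSS was more frequent than a peak at each. Of 542 such pairs 355 (65.5%) had a summit within 150 bp of 1 TSS and none at the other, 54 (9.96%) had one at each TSS, and 14 had one in between and at neither. In the remaining 119 no summit met these limits. Pairs that share a gene count separately, so a summit can be counted in more than 1 pair. Of the 355 pairs, the peak was at the minus-strand gene in 157 and at the plus-strand gene in 198. The replicate 1 list had 326 pairs with 1 TSS occupied and the replicate 2 list 361. In 279 pairs this held in both replicates, and it was the same TSS in 258 and the other one in 21. The choice of TSS was therefore mostly shared by the replicates. In the 54 pairs with a peak at each TSS the stronger peak had a median of 1.43 times the signal of the weaker (quartiles 1.2 and 2.04).

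The 5 pairs with the strongest weaker peak illustrate double occupancy. Ciao1/HPS1, of which Ciao1 is a cytosolic iron-sulphur assembly factor, had 166.3 at the Ciao1 TSS and 197.6 at the HPS1 TSS, 381 bp apart. For bdwf/Patr-1 (Patr-1 is an mRNA decay factor of P bodies) the signals were 158.3 and 175.8. CG5003/mRpS22, with a mitochondrial ribosomal protein, had 165.1 and 158. The pair yem/Ctl2 (yem encodes an H3.3 chaperone subunit) had 226.6 and 153.6. M1BP/CG8202, which includes the gene of the Motif 1 binding factor itself, had 186.1 and 137.4. In replicate 1 these 10 peaks had between 55.4 and 115.8, and in replicate 2 between 80.1 and 147.2.

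The side of the midpoint was also read in each replicate. Each main-list peak was matched to the overlapping peak of each replicate's ranking, and the sides were compared. Peaks that overlap the same main-list peak have summits near each other by this matching, and far from the midpoint that nearly fixes the side. In 1137 of 1302 peaks (87.3%, interval 85.4 to 89) the replicate summits lay on the same side, with a median gap between them of 30 bp. By spacing the share was 75.9% at 1 to 100 bp, 86.1%, 84% and 93.8% in the next classes, and 204 of 204 at 401 to 500 bp. Disagreement was most frequent at the shortest spacing, in pairs 1 to 100 bp apart.

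Per pair, 827 of the 1164 pairs had 1 peak, 301 had 2, 32 had 3 and 4 had 4. Without companions 1016 had 1, 144 had 2 and 4 had 3. The 144 pairs with 2 had their summits a median of 607.5 bp apart at a median spacing of 376.5 bp. The pairs with 4 peaks were rno/mri, CG9386/BckdhA, CG10576/Txl and MTA1-like/Sec23. In rno/mri the 4 summits had signals of 280.2, 4.8, 74.8 and 75 from left to right, and the peaks of 4.8 and 74.8 are companions. The mtsh/strat pair had 3 peaks, with 357.8 at 28 bp from the strat TSS. The lowest signals of all members were companions too, with 2.2 at Ankrd49/NC2beta, 2.3 at CG10444/CG11788 and 2.4 at Irp-1B/Rrp46.

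Peaks at divergent promoters were somewhat stronger than those at single-gene promoters in the main list. The median signal was 167 for all 1541 divergent promoter peaks (quartiles 101 and 276) and 139 for the 2604 single-gene promoter peaks (88.1 and 211), a log2 ratio of medians of 0.27. Without companions the medians were 190.2 and 150.4 and the log2 ratio 0.34. The quartile ranges of the classes overlap widely. In the replicate 1 list the medians were 84.3 and 72.3, and in the replicate 2 list 116 and 97.6, without companions, which are log2 ratios of 0.22 and 0.25. Each replicate list had its own threshold, so weak peaks were left out to different extents.

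Signal was highest at short spacing. The median was 308 at 1 to 50 bp and 279 at 51 to 100 bp, then 219, 192, 227 and 194 in the steps of 50 bp to 300 bp. From 301 to 500 bp it was 150.1, 133, 135 and 134, which is below the single-gene median of 150.4. In the replicate 1 ranking the first class had a median of 115 and the last 51.4, and in the replicate 2 ranking 188 and 84.2. Both replicates thus had their highest medians at the tightest pairs.

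**Figure D3:**
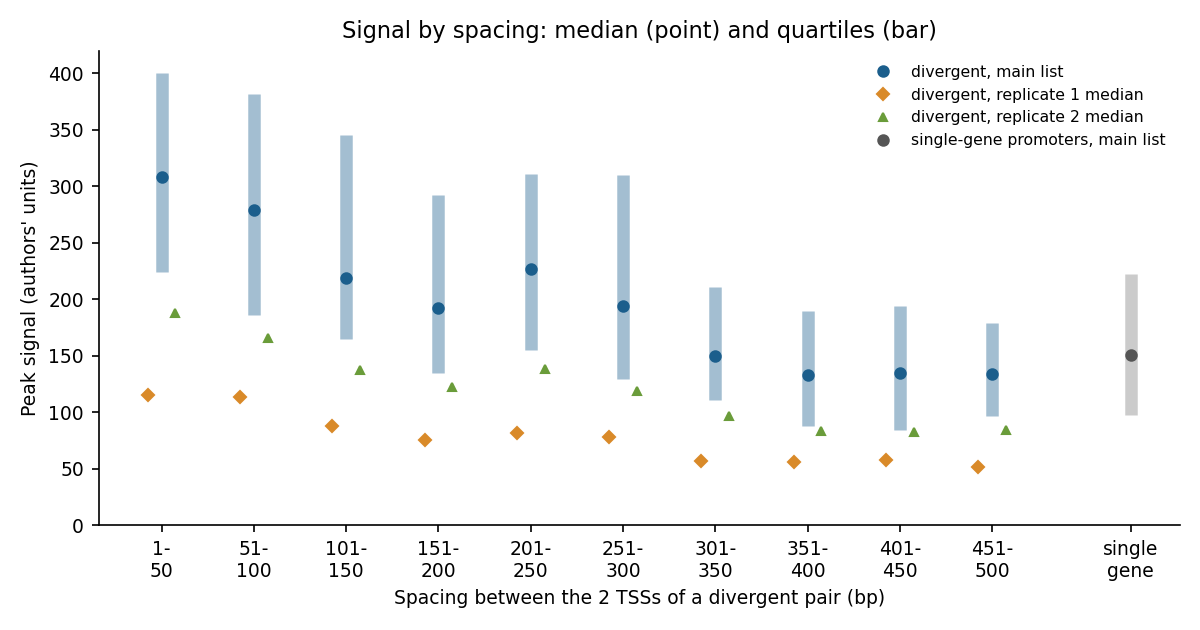
Peak signal in the authors' units by spacing class, companions left out. Circles are main-list medians with quartiles as bars, diamonds and triangles the medians of the same peaks in the replicate 1 and replicate 2 rankings, and the grey circle at the right the single-gene promoter peaks. Medians are 308 at 1 to 50 bp and 134 at 451 to 500 bp, against 150.4 for single-gene promoters.

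Stronger peaks were also more often between the TSSs. With the summits cut into 10 groups of equal size by signal, 22.7% of the 132 weakest lay between the TSSs, 41.7% in group 5 and 74.8% of the 131 strongest. The median spacing was 369 bp in the weakest group, 273 bp in group 5 and 127 bp in the strongest. The median distance to the nearest TSS was 133.5 bp in the weakest group and 50 bp in the strongest. For single-gene promoters it was 110 bp in the weakest group and 39 bp in the strongest, so the weakest peaks lay farther from the TSS in both classes.

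Divergent promoter peaks were overlapped by peaks of the replicate lists more often than single-gene ones. The main list was itself made from these replicates, and divergent peaks had the higher median signal, so the shares are a description. In the replicate 1 list 81.7% of the 1541 were overlapped by a peak (79.7 to 83.6), against 65.8% of single-gene peaks (64 to 67.6) and 55.8% of all main-list peaks off the X. In the replicate 2 list it was 95.7% (94.5 to 96.6), against 91.9% (90.8 to 92.9) and 88.4% of all. In the rankings of replicates 1 and 2, 99.4% and 99.7% of the divergent peaks had an overlapping peak. For single-gene peaks it was 95.5% and 99.6%. Across 1305 divergent promoter peaks the signals of the replicates had a Spearman correlation of 0.86, against 0.80 across 2267 single-gene peaks. These describe peaks of the same libraries, and peaks are not independent replicates. The replicate 2 signal was a median of 1.58 times that of replicate 1 at divergent and 1.67 times at single-gene promoters, with no correction for depth.

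The 12 strongest pairs, each with a peak in both replicate lists, had signals from 874.9 to 1545.4. The highest was at CG7601/CIA30, whose plus-strand gene encodes an assembly factor of respiratory complex I, with 1545.4 in the main list, 452.1 in replicate 1 and 1103.3 in replicate 2. Tcs5/CHMP2B followed with 1386.5, 442.7 and 932. Tcs5 belongs to a complex that modifies tRNA, and CHMP2B is a subunit of the membrane-remodelling ESCRT-III. CG5611/Mtl, with a Rac-like GTPase, had 1187.3, 279.4 and 893. mRpS23/CenG1A, a mitochondrial ribosomal protein and an Arf GTPase activator, had 1059.9, 244.8 and 819.6. In all of these replicate 2 was higher than replicate 1.

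Of the remaining 8, Fbw5/CG9147 (an F-box protein) had 1045.5 in the main list, CG13390/CG17294 1043.9, mRpL23/CG9004 1027.5 and Art3/mRpS10 963.2. Art3 is an arginine methyltransferase and both mRp genes encode mitochondrial ribosomal proteins. Atat/Shc, a tubulin acetyltransferase and an adaptor of receptor tyrosine kinases, had 922.5. brm/Arl1, the ATPase of the Brahma remodelling complex and a Golgi GTPase, had 919.8. Pex11ab/CG8320, with a peroxisome proliferation factor, had 914.7 and CG8372/CG8360 874.9. Over all 12 the replicate 1 signals ran from 228.8 to 452.1 and the replicate 2 signals from 558.4 to 1103.3.

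Position within these strongest pairs was unlike that of the members as a whole. Their summits lay a median of 105.5 bp from the nearest TSS (41 to 132), compared with 52 bp over all 1316. Of the 12, 8 had the summit between the TSSs, and in 6 of these it was within 20 bp of the midpoint. Those 6 are spaced 220 to 266 bp, with midpoint distances of 3 bp in CG7601/CIA30 and Tcs5/CHMP2B, 2.5 bp in Art3/mRpS10, 1 bp in Atat/Shc and brm/Arl1 and 18 bp in CG13390/CG17294. The other 4 are pairs spaced 24 to 57 bp, and there the summit lay outside, 86 bp from the nearer TSS in Fbw5/CG9147, 96 bp in mRpL23/CG9004, 81 bp in Pex11ab/CG8320 and 41 bp in CG8372/CG8360. In CG5611/Mtl and mRpS23/CenG1A, spaced 352 and 492 bp, it lay inside at 107 and 104 bp from a TSS. With 12 pairs chosen by their signal this is a description of those pairs.

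**Figure D4:**
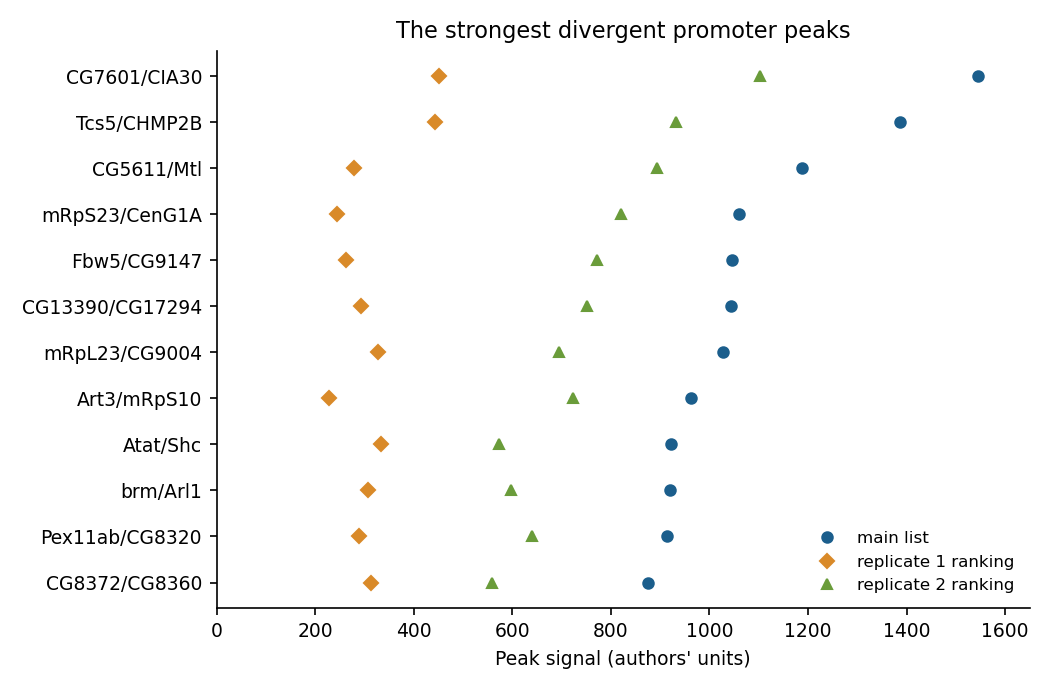
Signal in the authors' units at the 12 strongest divergent pairs, named minus-strand gene first. Circles are the main list, diamonds the replicate 1 ranking and triangles the replicate 2 ranking. Replicate 2 lies above replicate 1 in each pair, with 228.8 to 452.1 in replicate 1 and 558.4 to 1103.3 in replicate 2.

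By function, the pairs with a peak included most that hold genes of basic cellular machines. The gene lists were made from symbol patterns, so a list can also hold genes of other functions. Every gene named Vps, for example, was counted with autophagy and ESCRT, and every gene named Mettl with tRNA modification. The background is 81.3% of all pairs with a peak, or 83.6% of pairs without histone genes, and 28.5% of genes with no divergent partner. Of pairs with a mitochondrial ribosomal protein gene 44 of 46 had a peak, with a median signal of 256. Those without were the 2 pairs of mRpL47. Of the 62 such genes off the X 72.6% are divergent, against 25.2% of all protein-coding genes, and 15 of the 17 that are not divergent had a summit too. All 19 pairs with an RNA polymerase subunit, all 12 with a nucleoporin (a protein of the nuclear pore) and all 18 with a tRNA modification gene had one. So did 19 of 20 with an aminoacyl-tRNA synthetase, 24 of 25 with an autophagy or ESCRT gene and 23 of 24 with a Mediator, TFIID or general transcription factor gene. In the replicate 1 list the counts were 15, 11, 16, 16, 23 and 21 in the same order, against 71.7% of all pairs. Genes of these lists with no divergent partner often had a summit too. Their counts were 10 of 11, 6 of 6, 3 of 4, 13 of 13, 15 of 20 and 12 of 19 in that order. Pairs that share a gene count separately, as with Polr2D/moi and Polr2D/Tgs1, both with a signal of 405.2. A pair counts by a summit near either TSS, and which TSS was nearer was not compared for these lists or those of the next paragraph. In mRpS23/CenG1A the summit was nearer the partner, at 104 bp against 388 bp from mRpS23. In mRpL23/CG9004 and Art3/mRpS10 it was nearer the ribosomal protein gene.

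Cytosolic ribosomal protein genes had a peak in 30 of 33 pairs (90.9%, against the background of 81.3%), with a median signal of 164. In the replicate 1 list they had one in 20 of 33, a share below the 71.7% of all pairs in that list. Oxidative phosphorylation genes had one in 24 of 27 pairs, DNA replication genes in 10 of 11, proteasome genes in 15 of 18 and translation factors in 14 of 18. The last 2 are near the background of 81.3%, or 83.6% without histone genes. Proteasome pairs without a peak were Prosalpha1/CG18853 and both pairs of Prosalpha1R. All 4 pairs with a gene of the NSL or MSL complex had a peak, namely msl-2/ND-PDSW (280.2), CG11593/Rcd5 (261.7), msl-3/BBS1 (168) and Rcd1/pea (165.6). Both pairs of Tim10, a mitochondrial import factor, had the same summit.

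Chemosensory genes gave the opposite picture as single genes and a mixed one as pairs. These are gustatory, odorant and ionotropic receptors and odorant-binding proteins, many of which are expressed in sensory organs. Of 178 that are not divergent 1 (0.562%) had a summit within 500 bp of its TSS, against 28.5% of all genes with no divergent partner. Of the 18 pairs with such a gene 8 had a peak (44.4%, against 81.3% of all pairs). It was 4 in the replicate 1 list and 8 in the replicate 2 list. In all 8 the summit was nearer to the TSS of the partner. At Gr63a/Lamtor4, the carbon dioxide receptor subunit and a Ragulator subunit, the summit of signal 221.5 lay 32 bp from the Lamtor4 TSS and 265 bp from that of Gr63a. At Obp93a/Ice2 it lay 39 bp from the Ice2 TSS and 538 bp from that of Obp93a (132.7). At JMJD5/Gr61a, 91 bp apart, it lay 45 bp from the JMJD5 TSS and 136 bp from the Gr61a TSS (138.2). The pairs CG17768/Ir31a and LSm-4/Ir31a share 1 summit, so these 8 pairs are not 8 separate peaks.

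Cuticle and heat-shock genes were few. Lcp9/CG3594 had its summit 10 bp from the CG3594 TSS and 479 bp from that of the larval cuticle gene Lcp9, with a signal of 303. The pair Pez/Cpr was also caught by the symbol pattern for cuticle genes, but Cpr is the cytochrome P450 reductase. None of the 106 cuticle genes that are not divergent had a summit, against 5 of 15 such heat-shock genes (33.3%) and the background of 28.5%. CG14965/Hsp83 had its summit 108 bp from the CG14965 TSS and 586 bp from that of Hsp83, the Hsp90 gene.

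In 21 pairs both genes belong to one of the lists, histones aside. Of these 13 had a peak, a lower share than the 83.6% of all pairs without histone genes. Apart from Tcs5/CHMP2B the 13 include TrpRS/Vps16A (598.4 in the main list, 218.2 in replicate 1 and 387.6 in replicate 2) and eIF2Balpha/Vps13B (498.3, 178.8 and 304.6). Taf10b/Taf10, paralogous TFIID subunits 45 bp apart, had 308.5, 116.3 and 187.8. The pair msl-2/ND-PDSW, also 45 bp apart, had its summit 2.5 bp from the midpoint. RpS27/Nup37 had 260.4, Nup75/MED9 248.8 and mRpL55/ATPsynD 226.9. From 169.2 downward came mRpL39/Prosbeta2, Vps39/eIF1A, Vps52/Elp4, RpL34a/Trmt61 and RpL28/eIF1 (103.4). Of the 8 without a peak, 7 join 2 chemosensory, 2 cuticle or 2 heat-shock genes, for example Gr58b/Gr58a and Hsp67Bc/Hsp22. The eighth was Prosalpha1R/Atg10.

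Of the pairs without a peak outside the histone array, among the first 10 in alphabetical order were Aldh7A1/CG14085, Alp10/Alp9, B9d2/CG9222, BaraC/CG10307, CAH8/CG7059, CG10031/CG42464, CG10140/CG14109, CG10151/ND-B15 and CG10164/beat-IV. Of these CAH8/CG7059 and CG10151/ND-B15 had a peak in the replicate 2 list. Pairs in which both genes have only a CG or CR number had a peak in 130 of 210, against 81.3% of all pairs.

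Known promoter motifs were present around a minority of summits. Within 100 bp of the summit, on either strand, a DRE (TATCGATA) was found at 13.7% of the 1316 divergent summits (11.9 to 15.6), 11.2% of the 2384 single-gene summits (10 to 12.6) and 7.07% of all TSSs off the X. The Motif 1 core (GGTCACACT) was at 9.88%, 10.3% and 5.23%. The E-box CAGCTG was at 23.9%, 21.8% and 14%. Motif 7, a degenerate housekeeping core motif, was at 7.98%, 6.46% and 3.95%, and Motif 6, another of that kind, at 1.37%, 1.05% and 0.858%. The intervals of divergent and single-gene summits overlap for each of these 5. The same strings reversed were at 0.608% (DRE), 1.82% (Motif 1 core) and 1.37% (E-box) of the divergent summits.

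The GAGA factor string GAGAGAG was rarer at divergent summits, at 0.988% (0.578 to 1.68), against 3.31% of single-gene summits (2.67 to 4.11) and 3.74% of all TSSs. The BEAF-32 string CGATA, which is also contained in the DRE, was at 51.1%, 46.1% and 38.1%, and its reversed string at 30.8% of the divergent summits. The TATA string TATAAA was at 26.3% of divergent summits, 22.7% of single-gene summits and 30.2% of all TSSs, and its reversed string at 42.2% of divergent summits. The Zelda string CAGGTAG was at 0.684%, 0.923% and 0.994%. A match is a string in a window and not a shown binding site.

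**Figure D5:**
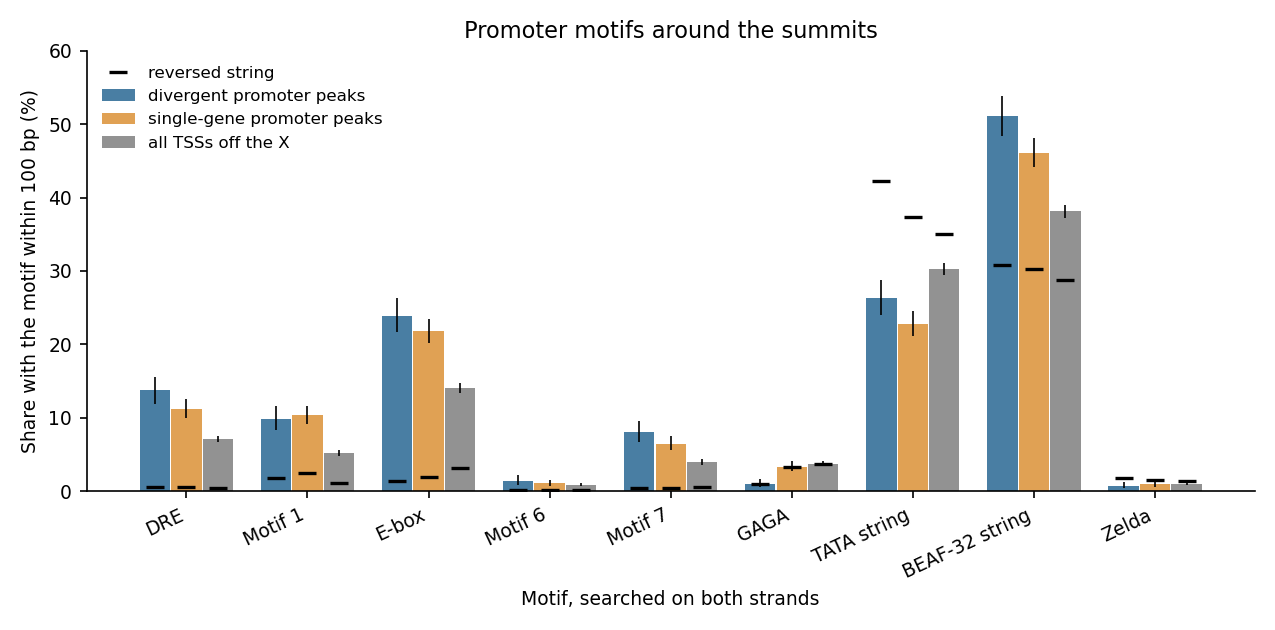
Share of summits, or of all TSSs off the X, with each motif within 100 bp on either strand, in percent with Wilson 95% intervals, and the share with the reversed string as a dash. GAGAGAG reads the same reversed, so its dash equals its bar. Bars are divergent promoter peaks, single-gene promoter peaks and all TSSs, companions left out. The DRE bars stand at 13.7, 11.2 and 7.07%, and the GAGA bars at 0.988, 3.31 and 3.74%.

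Between the TSSs, pairs with a peak held a DRE more often than pairs without one. Histone pairs aside, it was in 18.6% of 1261 pairs with a peak (16.6 to 20.9) and in 6.45% of 248 pairs without (4.01 to 10.2). The E-box was in 18% and 8.47%, and Motif 7 in 8.25% and 2.42%. The Motif 1 core was in 5.95% and 2.82%, with intervals that overlap. The GAGA string was in 0.793% and 4.44%. The BEAF-32 string, also contained in the DRE, was in 60.1% (57.4 to 62.8) and 42.7% (36.7 to 49). The TATA string was in 41.3% and 46%, Motif 6 in 2.54% and 2.02% and the Zelda string in 0.952% and 1.21%. The intervals overlap for the TATA string, Motif 6 and the Zelda string. For the DRE the difference was present at 1 to 200 bp (16.3% and 4.88%) and at 201 to 500 bp (20% and 7.23%).

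In wide pairs a DRE or an E-box was more often at the occupied TSS. In the 355 pairs with a peak at 1 TSS, the DNA from 150 bp before to 50 bp after each TSS was searched. Pairs that share a gene were again counted separately. A DRE was only at the TSS with the peak in 49 pairs, only at the other TSS in 26 and at both in 10. For the E-box the numbers were 70, 29 and 5, and for the Motif 1 core 31, 21 and 4. For Motif 7 they were 24, 21 and 1, and for the TATA string 83, 86 and 46. For the BEAF-32 string they were 88, 43 and 116.

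Summits with a DRE had a median signal of 226, against 185 for those without. The medians were 82.1 and 73.1 in replicate 1 and 136 and 114 in replicate 2. Summits with an E-box had 229 and those without 176, with 87.7 and 70.3 in replicate 1 and 145 and 108 in replicate 2. For the Motif 1 core the medians were 224 and 188. They were 227 and 187 for Motif 7, 207 and 186 for the TATA string and 203 and 178 for the BEAF-32 string. The order was the other way for Motif 6 (158 and 191), the GAGA string (131 and 190) and the Zelda string (182 and 190). These were at 18, 13 and 9 summits. The quartiles overlap in each case, at 149.5 to 302 with a DRE and 120.1 to 293 without. When a DRE was within 250 bp its median distance from the summit was 64.5 bp.

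The limits of the rule leave similar peaks on either side. The members just inside the summit limit were at Cht2/CG8001 (494 bp from the TSS, signal 59.7), Coq4/CG32176 (478 bp, 155.4) and rno/mri (474 bp, 280.2). The peaks just outside were at CNBP/CG9849 (505 bp, 256), RpS28a/Axn (506 bp, 59.6) and CG7166/Alg11 (509 bp, 140.7). In spacing, the peak at Meics and its partners Nxf3 and ssp2 (501 bp, 207.4) and that at CG16868/CG34199 (502 bp, 98.8) missed the limit of 500 bp. Of the summits beyond a TSS, 55 of 343 on the minus-strand side and 78 of 321 on the plus-strand side lay nearer to another annotated TSS than to either of the pair.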

How the data were processed

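ChIP-seq peak lists of 2 biological replicates were used, on dm6 per the labels. Signal values, summit positions and a score (scaled irreproducible discovery rate, capped at 1000, at least 830 in the main list) were deposited by the authors. For the aligner, peak caller, signal scaling and depth, nothing is given in the sources used here, and control libraries were not analysed here. Signal was compared within a list, and between replicates side by side without depth correction. Genes and TSSs came from Ensembl release 115, sequences from the RefSeq copy of dm6, after chromosome lengths were compared. Overlap meant at least 1 shared bp. Intervals of shares are Wilson 95% intervals, and cover only counting error. No test was run, since there is 1 group and peaks are not replicates. The classification was checked on simulated data. Members, pair lists and the 18 gene lists (symbol patterns) were chosen with earlier results of these data known. Named pairs were the 12 strongest, the extremes of spacing, signal and peak number, double-peak pairs, pairs with both genes in a list and those at the limits. Python 3.11.15, numpy 2.4.6, scipy 1.17.1 and matplotlib 3.10.9 were used. Of the sequences selected for printing, 1 is not reported here.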

Additional observations from a re-analysis of the deposited data

How the results depend on the processing

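Across 71 recalculations of 6 values, 43 stayed within the tolerance set for each value and 28 moved beyond it. The tolerance differed by value. It was wide for the number of members, where 1047 (stronger 50% of peaks) and 1975 (spacing up to 1000 bp) against 1541 counted as within it. Only the log2 ratio of median signal could change sign, and it did not in its 13 recalculations. The other values are counts or shares, for which a reversal was not possible. The share of pairs with a peak was 69.6% with the stronger 50% of peaks, and 71.7 to 81.3% with 1 replicate left out. The number of members was 741 with spacing up to 250 bp, and 1231 to 1553 with 1 replicate left out. Of the summits, 45.8% lay between the TSSs in the main list, 54.8% among the stronger 50%, 48.5% with a summit window of 250 bp, 42.3% with 1000 bp, and 43.1% with spacing up to 1000 bp. Leaving out companions, an alternative chosen after seeing the data, gave 49.5%, and 50.3% in the replicate 1 list. With 1 replicate left out it was 43.7 to 47.3%.

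The log2 ratio of median signal, 0.27 in the main list, was positive in all 13 alternatives. It was 0.15 in the conservative list, 0.17 with either replicate left out, 0.23 for the stronger 50%, and 0.22 and 0.28 with summit windows of 250 and 1000 bp. It was 0.66 with spacing up to 250 bp, 0.12 with spacing up to 1000 bp, 0.37 with any annotated TSS and 0.28 with repeated intervals counted once. Leaving out companions gave 0.34, or 0.22 and 0.25 in the replicate 1 and replicate 2 lists. Each of these differed from the main value by more than the spread between the replicate lists, an SD of 0.00132 from 2 values that lie close together. The DRE share, 12.7% with companions, was 14.7% for the stronger 50% and 7.79% with a motif window of 50 bp, and 11.5 to 13.9% with 1 replicate left out. Replicate summits on the same side of the midpoint were 87.7% in the main list, 85.7% for the stronger 50%, 82% and 90.3% with spacing up to 250 and 1000 bp, and 83.8% with the thresholded list of each replicate. The cause was not tested. Narrower windows and spacings hold fewer peaks by construction.

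No paired analysis was possible because there is 1 group and no test. The depth of the libraries is unknown, so absence of a peak means that none was called at this depth.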
